A study of Mus musculus with 16 samples.

Results

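The flexor tendon of the forepaw was compared with the Achilles tendon of the hindlimb in C57BL/6J mice, an inbred laboratory strain. The comparison comprised 8 of the 16 RNA sequencing libraries of the series, chosen by their tissue labels: 4 Flexor libraries and 4 Achilles libraries. The labels name no treatment, transgene or genotype difference, and give neither age nor sex of the mice. The other 8 libraries, 4 of the Supraspinatus tendon at the shoulder and 4 of the Patellar tendon at the knee, were used here only to set the limb difference at a proximal position beside the distal one. The libraries of each tendon are numbered as mice 1 to 4, and no label says whether a number marks the same animal in different tendons.

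Both tendons are distal: flexor tendons pass through synovial sheaths to bend the digits, and the Achilles tendon transmits the force of the calf muscles to the heel bone through a fibrocartilaginous attachment. Tendon is made by fibroblasts (tenocytes) that assemble parallel fibrils of type I collagen, under transcription factors that include Scx and Mkx. Forelimb and hindlimb cells also carry a positional code laid down in the embryo, with Tbx5 in the forelimb, Pitx1 and Tbx4 in the hindlimb, and clustered Hox genes along each limb. RNA of whole tendon also contains transcripts of the muscle, fat, nerve, vessels and bone that adjoin it, and in such bulk samples fewer cells of a type and less RNA per cell cannot be told apart.

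The tendons differed in 6580 of 22472 genes tested, 29.3% of them. Of these, 2690 genes (12%) were higher and 3890 (17.3%) lower in Flexor than in Achilles (edgeR quasi-likelihood test, Benjamini-Hochberg adjusted p under 0.05). At least 2-fold changes were found in 1009 higher and 2002 lower genes, and at least 16-fold changes in 72 higher and 124 lower genes. The median log2 fold change of all tested genes was -0.02. All log2 fold changes below are Flexor minus Achilles with their standard errors from this fit of 4 against 4 libraries, and all levels are CPM, counts relative to library size after TMM scaling, which trims the most extreme genes. The 4 and 4 library values did not overlap in 31.5% of genes tested (14.1% higher, 17.4% lower). Counts of list members called below stand against the 12% higher and 17.3% lower among all genes tested.

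**Figure D1:**
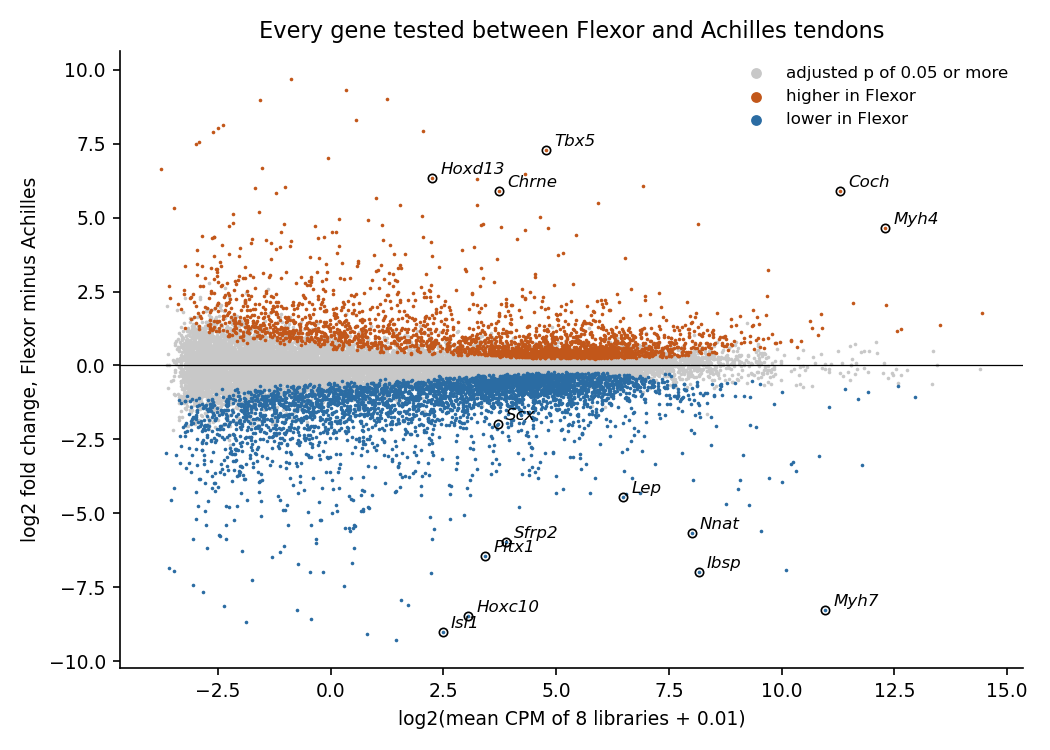
Log2 fold change (Flexor minus Achilles) of each of 22472 genes tested against its mean level over the 8 libraries, as log2(mean CPM + 0.01). Orange points are the 2690 genes higher in Flexor, blue points the 3890 lower and grey points those not past the threshold, and circled genes are described in the text.

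Total counts ranged from 97242489 to 106573353 in Flexor and from 84414005 to 97180849 in Achilles. Genes with rRNA-like sequence, grouped with earlier values known, took 1.86% to 2.48% of Flexor and 3.30% to 4.91% of Achilles counts. Across genes, which are no replicates, mean Pearson r was 0.986 between Flexor libraries, 0.981 between Achilles libraries and 0.953 between the tendons. Along the first principal component, which held 58.6% of the variance, the tendons separated. The second, with 13.2%, set Achilles library 3 at one end and Achilles library 2 at the other. Achilles library 3 also had the highest share of counts in muscle genes common to all fibres (7.76%, against 4.26% to 4.86% in the other Achilles libraries). The defining tendon genes Scx, Mkx, Tnmd, Fmod, Thbs4, Col1a1 and Col1a2 were detected in all 8 libraries. A covariate for adipocyte genes left 4 higher and 23 lower genes. Its values did not overlap between the tendons, so it and the tendon cannot be told apart in this design.

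Limb position genes separated the tendons. CPM values of Tbx5 were 48.96, 57.7, 50.8 and 61.1 in the Flexor libraries, against 0.5097, 0.154, 0.259 and 0.461 in the Achilles libraries. Tbx5, the T-box factor that starts forelimb outgrowth, was thus high in every Flexor library and near 0 in Achilles, with log2 fold change 7.29 ± 0.303, adjusted p = 2.1e-06; the gene lies at chromosome 5, 119832668 to 119885219, plus strand, on GRCm38 (mm10), the build of all positions here. For Pitx1, Flexor levels were 0.177, 0.225, 0.192 and 0.3804 CPM, against 18.1, 34.3, 12.4 and 20.1 CPM in Achilles. Pitx1, the homeobox factor of hindlimb identity at chromosome 13, 55825051 to 55836192, minus strand, was low in all Flexor libraries without overlap (log2 fold change -6.43 ± 0.39, adjusted p = 1.2e-05). Levels of Isl1 were 0.0417, 0.0215, 0 and 0.01902 CPM in the Flexor libraries, against 8.36, 17.3, 6.48 and 12.3 CPM in the Achilles libraries. Isl1, a LIM-homeobox factor that acts before hindlimb bud outgrowth, therefore rested on 8 reads over all Flexor libraries and 4157 reads over all Achilles libraries (log2 fold change -9.02 ± 0.54, adjusted p = 1e-05).

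Tbx4, the T-box factor used by the hindlimb bud, did not follow that division. Tbx4 reached 23.5, 24.3, 20.4 and 25.3 CPM in Flexor, against 14.8, 21.3, 9.98 and 13.8 CPM in Achilles. The ranges overlapped, since Achilles library 2 lay above Flexor library 3, and the difference was small (log2 fold change 0.64 ± 0.198, adjusted p = 0.035). Its call was lost when Flexor library 1, 2 or 4 or Achilles library 1 or 4 was left out, with log2 fold changes between 0.49 and 0.86.

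The Hoxc cluster on chromosome 15 was almost silent in Flexor. All 7 tested members (Hoxc4, Hoxc5, Hoxc6, Hoxc8, Hoxc9, Hoxc10 and Hoxc11) were lower, with a median log2 fold change of -6.69. Hoxc10 stood at 0.0521, 0.0215, 0.0575 and 0.0475 CPM in Flexor libraries 1 to 4, against 14.4, 15.8, 20.5 and 15.2 CPM in Achilles libraries 1 to 4. Hoxc10, at chromosome 15, 102966796 to 102971893, plus strand, is a posterior member active in the embryonic hindlimb, and its levels stood far apart in the tendons (log2 fold change -8.47 ± 0.25, adjusted p = 3.1e-07). Hoxc11 had 2 reads in all Flexor libraries together, against 1287 reads in Achilles. Hoxc9 averaged 0.0229 ± 0.01598 CPM in Flexor and 5.82 ± 0.773 CPM in Achilles. Hoxc6 averaged 0.0559 ± 0.0163 CPM in Flexor and 2.58 ± 0.347 CPM in Achilles. Hoxc9 and Hoxc6 pattern the trunk and limb axis, and their log2 fold changes were -7.93 and -5.51.

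The 5' end of the Hoxd cluster went the other way. These genes specify the digits and wrist in the embryo, and 4 of 6 tested Hoxd genes were higher in Flexor, Hoxd10 to Hoxd13 in cluster order. CPM values of Hoxd13 were 7.86, 9.97, 8.63 and 10.9 in the Flexor libraries, against 0.222, 0.187, 0.0216 and 0.03004 in the Achilles libraries. Hoxd13, at chromosome 2, 74668310 to 74671599, plus strand, was at 5 CPM or more in every Flexor library and under 0.5 CPM in every Achilles library (log2 fold change 6.35 ± 0.52, adjusted p = 4.4e-05). Hoxd12 had 1172 reads over the Flexor libraries and 3 reads over the Achilles libraries. For Hoxd11, Flexor levels were 16.8, 19.002, 16.9 and 20.9 CPM, against 1.83, 3.05, 0.971 and 1.58 CPM in Achilles. Hoxd11 differed less (log2 fold change 3.31 ± 0.299, adjusted p = 8.3e-05), and Hoxd10 averaged 9.88 ± 1.25 CPM in Flexor and 2.51 ± 0.5502 CPM in Achilles (log2 fold change 1.97 ± 0.18, adjusted p = 8.5e-05). Hoxd8, which lies further towards the 3' end, was lower (log2 fold change -0.66 ± 0.18, adjusted p = 0.019), a call that was lost without Flexor library 1, 2 or 3 or Achilles library 2.

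In the Hoxa cluster 3 of 11 tested genes passed the test, 18.2% higher and 9.1% lower, beside 12% and 17.3% of all genes tested. Hoxa13, a partner of Hoxd13 in digit formation, averaged 6.904 ± 0.692 CPM in Flexor and 1.09 ± 0.0427 CPM in Achilles (log2 fold change 2.67 ± 0.14, adjusted p = 6.7e-06), and Hoxa7 averaged 11.7 ± 1.14 CPM in Flexor and 7.37 ± 1.47 CPM in Achilles (log2 fold change 0.66 ± 0.16, adjusted p = 0.011). Hoxa4 was the lower one, at 0.233 ± 0.0819 CPM in Flexor and 0.555 ± 0.237 CPM in Achilles, and its call was lost without Flexor library 2, 3 or 4 or Achilles library 2 or 3. All 6 tested Hoxb genes were lower in Flexor, with a median log2 fold change of -2.05. Hoxb7 averaged 0.894 ± 0.0658 CPM in Flexor and 3.22 ± 0.402 CPM in Achilles (log2 fold change -1.85 ± 0.17, adjusted p = 7.5e-05), and Hoxb5 averaged 0.216 ± 0.0307 CPM in Flexor and 0.765 ± 0.158 CPM in Achilles. Of 7 tested non-coding RNAs of the Hox clusters, Hottip, transcribed beside Hoxa13, averaged 2.07 ± 0.687 CPM in Flexor and 0.0893 ± 0.0449 CPM in Achilles (log2 fold change 4.53 ± 0.39, adjusted p = 6e-05). Hotair, transcribed from the Hoxc cluster, had 1 read over the Flexor libraries and 543 reads over the Achilles libraries. How the counting treated strand was not stated in the labels, so reads of these antisense genes and their neighbours cannot be told apart.

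Other patterning factors were divided between the tendons, 16 higher and 12 lower in Flexor among 45 tested. Levels of Shox2 were 0.834, 0.5797, 0.862 and 0.552 CPM in the Flexor libraries, against 12.4, 13.5, 8.24 and 11.97 CPM in the Achilles libraries. Shox2, a homeobox gene of the proximal limb, was lower in all Flexor libraries (log2 fold change -4.03 ± 0.23, adjusted p = 7.5e-06). Meis2, which marks proximal limb cells, averaged 0.479 ± 0.231 CPM in Flexor and 3.51 ± 0.947 CPM in Achilles (log2 fold change -2.87 ± 0.36, adjusted p = 0.00046). En1, a homeobox gene of the ventral limb ectoderm, averaged 0.149 ± 0.0442 CPM in Flexor and 1.79 ± 0.227 CPM in Achilles, and Tbx2 averaged 1.46 ± 0.175 CPM in Flexor and 5.11 ± 1.22 CPM in Achilles. On the higher side stood Zic1, a zinc finger factor, which averaged 2.16 ± 0.378 CPM in Flexor and 0.193 ± 0.0243 CPM in Achilles. Lhx2, a LIM-homeobox factor needed for limb outgrowth, averaged 2.35 ± 0.603 CPM in Flexor and 0.301 ± 0.07398 CPM in Achilles (log2 fold change 2.96 ± 0.28, adjusted p = 9.2e-05). Osr2 reached 37.4, 47.9, 44.8 and 43.5 CPM in Flexor, against 12.4, 8.25, 5.16 and 8.88 CPM in Achilles. Osr2, a zinc finger factor of synovial joints, was higher in each Flexor library than in any Achilles library (log2 fold change 2.32 ± 0.23, adjusted p = 0.00012).

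**Figure D2:**
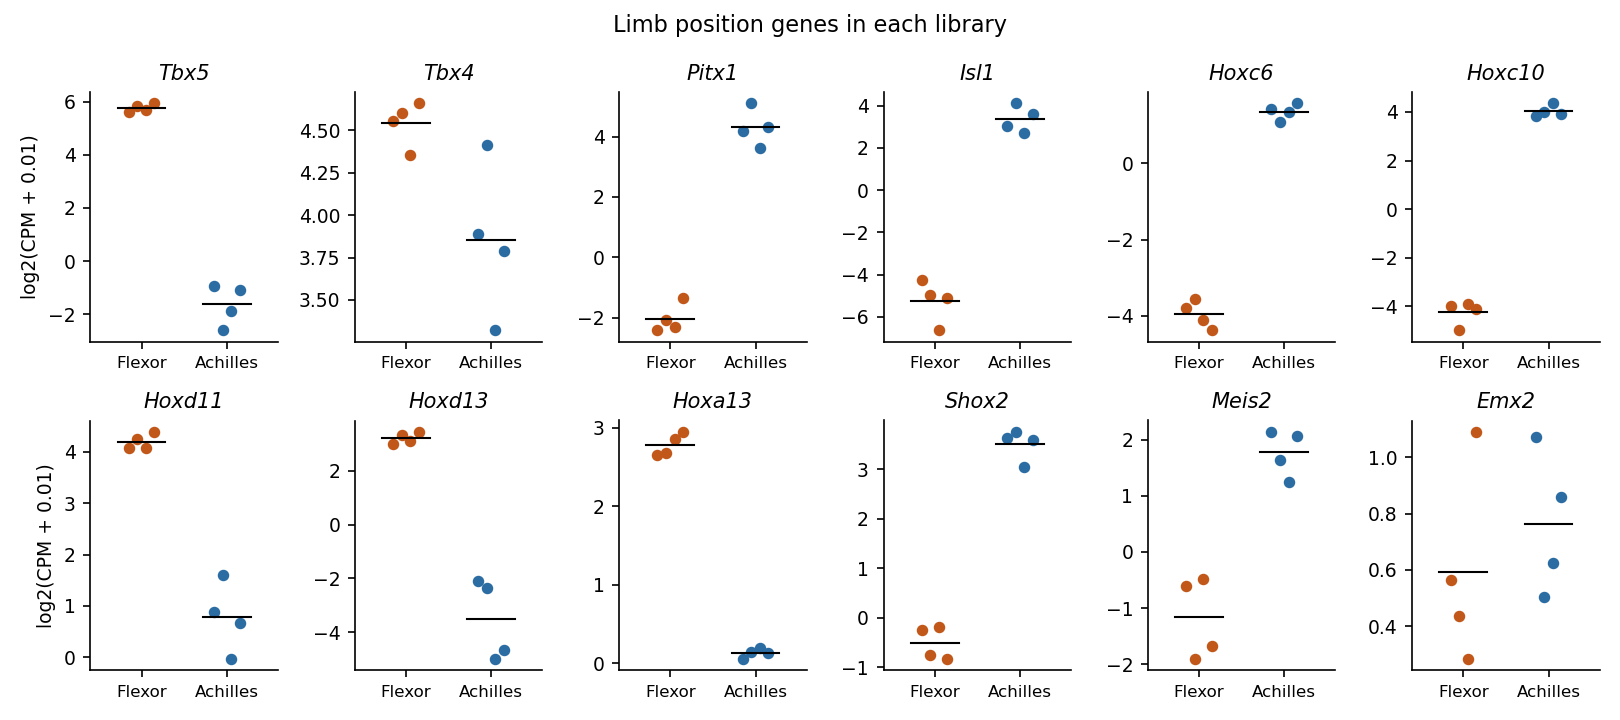
Level of 12 limb position genes as log2(CPM + 0.01) in 4 Flexor (orange) and 4 Achilles (blue) libraries, with the mean of each as a line and a separate vertical scale in each panel. Flexor points lie above all Achilles points for Tbx5, Hoxd11, Hoxd13 and Hoxa13 and below all of them for Pitx1, Isl1, Hoxc6, Hoxc10, Shox2 and Meis2.

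The forelimb and hindlimb difference depended on position along the limb for 9 of 14 limb genes, against a background of 34.3% of all genes tested for this difference. It was tested as (Flexor minus Achilles) minus (Supraspinatus minus Patellar) in a fit of all 16 libraries, whose common scaling gives slightly different levels. Tbx5 averaged 50.8 CPM in Flexor and 0.315 CPM in Achilles, beside 20.3 CPM in Supraspinatus and 7.88 CPM in Patellar, and the distal minus proximal difference was 5.96 ± 0.34 (log2, adjusted p = 1.1e-07). Pitx1 averaged 0.226 CPM in Flexor and 19.3 CPM in Achilles, beside 12.4 CPM in Supraspinatus and 60.97 CPM in Patellar, and the distal minus proximal difference was -4.09 ± 0.42 (log2, adjusted p = 4.5e-06). Both factors thus kept their direction at the proximal position with smaller differences there. Tbx4 averaged 21.7 CPM in Flexor and 13.6 CPM in Achilles, beside 4.26 CPM in Supraspinatus and 19.04 CPM in Patellar, and the distal minus proximal difference was 2.84 ± 0.38 (log2, adjusted p = 3.9e-05). Hoxd10 averaged 9.18 CPM in Flexor and 2.29 CPM in Achilles, beside 0.477 CPM in Supraspinatus and 1.31 CPM in Patellar, and the distal minus proximal difference was 3.47 ± 0.46 (log2, adjusted p = 3.6e-05). For Tbx4 and Hoxd10 the sign was opposite at the proximal position. Meis2 averaged 0.445 CPM in Flexor and 3.19 CPM in Achilles, beside 6.73 CPM in Supraspinatus and 5.46 CPM in Patellar, and the distal minus proximal difference was -3.13 ± 0.46 (log2, adjusted p = 9.1e-05). Meis2 was lowest in Flexor, and its proximal difference did not pass the test (adjusted p = 0.45). Hoxc6 averaged 0.05198 CPM in Flexor and 2.35 CPM in Achilles, beside 4.99 CPM in Supraspinatus and 16.1 CPM in Patellar, and the distal minus proximal difference was -3.78 ± 0.29 (log2, adjusted p = 3.9e-07). Hoxc6 was thus not near 0 in the other forelimb tendon. The difference also passed for Shox2 (-1.699 ± 0.26, adjusted p = 0.00012), Emx2 (2.07 ± 0.42, adjusted p = 0.0013) and Hoxd11 (3.02 ± 1.04, adjusted p = 0.035), the last of which lost its call without Flexor library 4, Achilles library 1, 3 or 4, Supraspinatus library 1, 2 or 4 or Patellar library 3 or 4. Emx2 averaged 1.43 CPM in Flexor and 1.56 CPM in Achilles, beside 3.13 CPM in Supraspinatus and 14.4 CPM in Patellar. Flexor and Achilles did not differ in Emx2 by the test of 8 libraries (adjusted p = 0.64). Hoxd11 was near 0 in both proximal tendons, at 0.0878 CPM in Supraspinatus and 0.0792 CPM in Patellar. The difference by position did not pass for Isl1, Hoxc10, Hoxc11, Hoxd13 or Hoxa13 (adjusted p from 0.061 to 0.71). Patellar libraries were shallower, at 34559686 to 63235636 counts, and 13.2% to 42.0% of their counts lay in the rRNA-like genes. Position along the limb, kind of tendon and library quality cannot be told apart in this difference.

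The 250 bases before the annotated start are shown for 1 gene high in each tendon from the limb group and from the muscle group described below. They are RefSeq sequence on GRCm38.p6, 5' to 3' on the strand of the gene, with matches to 3 motifs in capitals. The first motif, of the TATA box, was TATAAA and occurred in 12.4% of 32851 promoters of this length. The second, of the binding site of NF-Y, was CCAAT and occurred in 33.8% of them. The third, of the E-box bound by basic helix-loop-helix factors, was CANNTG and occurred in 66.2%. Each was searched on both strands.
Hoxd13, chr2:74667975-74668224, plus strand: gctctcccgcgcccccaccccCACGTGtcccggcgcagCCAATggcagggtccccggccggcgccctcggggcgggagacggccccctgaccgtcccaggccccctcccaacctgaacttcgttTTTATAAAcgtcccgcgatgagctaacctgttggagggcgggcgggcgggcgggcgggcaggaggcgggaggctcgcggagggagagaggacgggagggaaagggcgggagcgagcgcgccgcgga
Isl1, chr13:116309689-116309938, minus strand: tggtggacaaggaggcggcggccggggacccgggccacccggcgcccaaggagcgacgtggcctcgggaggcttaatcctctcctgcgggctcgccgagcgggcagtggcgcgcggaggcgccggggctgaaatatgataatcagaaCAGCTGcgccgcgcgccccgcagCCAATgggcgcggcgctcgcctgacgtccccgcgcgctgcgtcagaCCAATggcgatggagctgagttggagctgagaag
Myh4, chr11:67237562-67237811, plus strand: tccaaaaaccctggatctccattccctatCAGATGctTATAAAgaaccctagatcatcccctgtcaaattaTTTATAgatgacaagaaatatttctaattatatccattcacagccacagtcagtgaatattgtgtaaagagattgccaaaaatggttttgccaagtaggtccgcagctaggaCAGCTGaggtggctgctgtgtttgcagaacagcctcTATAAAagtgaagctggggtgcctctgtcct
Myh7, chr14:54994627-54994876, minus strand: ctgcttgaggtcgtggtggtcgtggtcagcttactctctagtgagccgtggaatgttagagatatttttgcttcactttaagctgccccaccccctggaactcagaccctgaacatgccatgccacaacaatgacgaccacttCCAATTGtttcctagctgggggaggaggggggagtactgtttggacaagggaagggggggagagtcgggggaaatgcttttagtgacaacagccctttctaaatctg
Hoxd13 and Isl1, high in opposite tendons, both had a GC-rich window, with 74.4% and 71.2% G and C. The windows of Myh4 and Myh7 held 42.0% and 52.0%. Myh4 held 3 matches to TATAAA and Hoxd13 held 2 overlapping ones, 1 on each strand, while Isl1 and Myh7 held none. In Myh7 the CCAAT and CANNTG matches overlap. A match is a run of letters and not evidence of binding.

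Among 14 tested tendon transcription factors 3 (21.4%) were higher and 2 (14.3%) lower in Flexor (1 lower without Flexor library 2 or 3 or Achilles library 4). Scx stood at 6.57, 5.03, 3.75 and 5.75 CPM in Flexor libraries 1 to 4, against 25.1, 25.8, 12.8 and 19.03 CPM in Achilles libraries 1 to 4. Scx, the basic helix-loop-helix factor of tendon progenitors, was lower in every Flexor library (log2 fold change -1.97 ± 0.24, adjusted p = 0.00042). CPM values of Mkx were 37.4, 42.9, 37.3 and 48.9 in the Flexor libraries, against 33.4, 64.9, 30.3 and 52.1 in the Achilles libraries. Mkx, a homeobox factor of tendon maturation, overlapped between the tendons (log2 fold change -0.12 ± 0.23, adjusted p = 0.73). Six2 and its partner Eya1, which act together in connective tissue and muscle, were higher, Six2 at 5.29 ± 1.101 CPM in Flexor and 0.535 ± 0.1504 CPM in Achilles (log2 fold change 3.303 ± 0.25, adjusted p = 3.6e-05) and Eya1 at 30.1 ± 2.502 CPM in Flexor and 11.8 ± 4.21 CPM in Achilles (log2 fold change 1.35 ± 0.21, adjusted p = 0.0015). Eya2 was lower, at 2.53 ± 1.32 CPM in Flexor and 5.82 ± 1.36 CPM in Achilles (log2 fold change -1.20 ± 0.33, adjusted p = 0.021).

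Of 42 tested tendon matrix genes and markers, 9 (21.4%) were higher and 7 (16.7%) lower, with a median log2 fold change of -0.05 beside -0.02 for all genes. The lower count was 3 without Flexor library 2 and 11 without Achilles library 3. For Coch, Flexor levels were 4061, 3905, 4876 and 6923 CPM, against 145, 75.4, 29.1 and 85.4 CPM in Achilles. Coch encodes cochlin, a secreted protein known from the inner ear; every Flexor library exceeded every Achilles library (log2 fold change 5.88 ± 0.51, adjusted p = 6.1e-05), and the gene lies at chromosome 12, 51593341 to 51605771, plus strand. Levels of Tnmd were 122, 104, 129.9 and 91.6 CPM in the Flexor libraries, against 182, 208, 128 and 282 CPM in the Achilles libraries. Tnmd, tenomodulin, a transmembrane marker of mature tenocytes, was lower (log2 fold change -0.84 ± 0.22, adjusted p = 0.018), although Achilles library 3 fell within the Flexor range and the call was lost without Flexor library 2. Type I collagen did not pass the test: Col1a1 averaged 4987 ± 1017 CPM in Flexor and 6298 ± 2653 CPM in Achilles (log2 fold change -0.34 ± 0.35, adjusted p = 0.5), and Achilles library 3 was the lowest of the 8. Col1a2 averaged 4909 ± 900.3 CPM in Flexor and 7341 ± 3054 CPM in Achilles and did not pass the test (log2 fold change -0.58 ± 0.34, adjusted p = 0.22). Col3a1 averaged 5046 ± 1504 CPM in Flexor and 3765 ± 1656 CPM in Achilles and did not pass the test (log2 fold change 0.42 ± 0.38, adjusted p = 0.43). Fmod averaged 3953 ± 519 CPM in Flexor and 2372 ± 1109 CPM in Achilles and did not pass the test (log2 fold change 0.74 ± 0.33, adjusted p = 0.12). Thbs4 averaged 993 ± 307 CPM in Flexor and 1569 ± 607 CPM in Achilles and did not pass the test (log2 fold change -0.66 ± 0.33, adjusted p = 0.15). Comp averaged 3987 ± 1305 CPM in Flexor and 2926 ± 1292 CPM in Achilles and did not pass the test (log2 fold change 0.45 ± 0.35, adjusted p = 0.37).

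Among matrix genes that were higher, Ecm1, a secreted glycoprotein, averaged 935 ± 121 CPM in Flexor and 369 ± 102 CPM in Achilles, and Tnxb, a tenascin that spaces collagen fibrils, averaged 498 ± 48.6 CPM in Flexor and 216 ± 66.7 CPM in Achilles (log2 fold change 1.21 ± 0.22, adjusted p = 0.0031). Tppp3, which marks the tendon sheath, averaged 469 ± 47.2 CPM in Flexor and 241 ± 12.4 CPM in Achilles (log2 fold change 0.96 ± 0.12, adjusted p = 0.00049). On the lower side, Cilp2, a cartilage-type matrix protein, averaged 130.1 ± 35.1 CPM in Flexor and 411 ± 185 CPM in Achilles, Postn, the matricellular protein periostin, averaged 37.1 ± 13.4 CPM in Flexor and 142 ± 40.8 CPM in Achilles (log2 fold change -1.94 ± 0.28, adjusted p = 0.00093), and Ptx4, a pentraxin, averaged 7.15 ± 1.37 CPM in Flexor and 33.8 ± 9.72 CPM in Achilles (log2 fold change -2.24 ± 0.21, adjusted p = 0.0001). In the collagen family 8 of 43 were higher and 8 lower, 18.6% each, beside 12% and 17.3% of all genes tested. Col22a1, found at muscle and tendon junctions, averaged 53.7 ± 16.3 CPM in Flexor and 200.3 ± 8.19 CPM in Achilles (log2 fold change -1.900 ± 0.19, adjusted p = 0.00012), and Col6a6 averaged 0.169 ± 0.114 CPM in Flexor and 3.57 ± 1.53 CPM in Achilles (log2 fold change -4.39 ± 0.54, adjusted p = 0.00039). Higher collagens fell to between 4 and 5 without Flexor library 1, 2 or 3 or Achilles library 4, and lower ones to 4 without Flexor library 2 or Achilles library 4.

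Of 21 tested genes of the gliding surface, 5 were higher and 7 lower (3 to 4 without Flexor library 1, 2 or 3 or Achilles library 1, 2 or 4). Has2, the hyaluronan synthase, averaged 20.6 ± 2.45 CPM in Flexor and 5.98 ± 1.88 CPM in Achilles (log2 fold change 1.79 ± 0.23, adjusted p = 0.00048). Vcan, the hyaluronan-binding proteoglycan versican, averaged 345 ± 49.6 CPM in Flexor and 147 ± 45.8 CPM in Achilles, and Cd55, a complement regulator of synovial lining cells, averaged 209 ± 30.4 CPM in Flexor and 62.1 ± 11.4 CPM in Achilles (log2 fold change 1.75 ± 0.16, adjusted p = 8.9e-05). Pla2g2a reached 40.9, 64.4, 58.5 and 52.8 CPM in Flexor, against 1.78, 3.51, 1.402 and 1.87 CPM in Achilles. Pla2g2a, named for a secreted phospholipase, is annotated as a polymorphic pseudogene. Its RNA levels did not overlap between the tendons (log2 fold change 4.66 ± 0.29, adjusted p = 1.3e-05). Whether they yield an active enzyme was not tested. Prg4, the boundary lubricant lubricin, averaged 2314 ± 302 CPM in Flexor and 2973 ± 968 CPM in Achilles and did not pass the test (log2 fold change -0.36 ± 0.25, adjusted p = 0.3).

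Of 60 tested matrix remodelling genes, a list of matrix proteases, their inhibitors and enzymes that process or cross-link collagen, 15 were lower and 5 higher. Timp4, an inhibitor of metalloproteinases, averaged 71.1 ± 10.3 CPM in Flexor and 243 ± 47.2 CPM in Achilles (log2 fold change -1.77 ± 0.16, adjusted p = 8.3e-05), and Adamts15, a versican-cleaving protease, averaged 8.46 ± 0.803 CPM in Flexor and 21.5 ± 5.08 CPM in Achilles (log2 fold change -1.35 ± 0.16, adjusted p = 0.00037). The higher genes included Pcolce2, at 560 ± 76.5 CPM in Flexor and 290 ± 106 CPM in Achilles (log2 fold change 0.95 ± 0.24, adjusted p = 0.016). P4ha2 was also higher, at 79.1 ± 4.54 CPM in Flexor and 49.7 ± 6.17 CPM in Achilles (log2 fold change 0.67 ± 0.11, adjusted p = 0.0015). Of elastic fibre genes 5 of 19 were higher and 5 lower, counts that dropped to between 2 and 3 without Flexor library 2 or 3 or Achilles library 2 or 4 in both directions, and without Flexor library 1 for the lower genes. Fbln2, the microfibril protein fibulin 2, averaged 949.8 ± 155 CPM in Flexor and 368 ± 75.7 CPM in Achilles (log2 fold change 1.37 ± 0.197, adjusted p = 0.00091), while Fbn2, the fibrillin of developing tissue, averaged 0.676 ± 0.1605 CPM in Flexor and 5.29 ± 1.21 CPM in Achilles (log2 fold change -2.97 ± 0.24, adjusted p = 4.5e-05).

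Cartilage genes split between the tendons, 9 higher and 8 lower among 31 tested (5 lower without Flexor library 2). Col9a1 stood at 24.2, 14.6, 17.2 and 21.5 CPM in Flexor libraries 1 to 4, against 0.765, 0.594, 0.766 and 0.731 CPM in Achilles libraries 1 to 4. Col9a1, a chain of the type IX collagen that coats cartilage fibrils, was thus high in all Flexor libraries (log2 fold change 4.76 ± 0.201, adjusted p = 2.1e-06). CPM values of Cnmd were 22.7, 23.8, 23.8 and 34.4 in the Flexor libraries, against 0.898, 0.814, 0.993 and 1.33 in the Achilles libraries. Cnmd, chondromodulin, an inhibitor of vessel growth related to tenomodulin, did the same (log2 fold change 4.69 ± 0.21, adjusted p = 2.8e-06), with its highest value in Flexor library 4. Col2a1, the main collagen of cartilage, averaged 15.9 ± 5.08 CPM in Flexor and 6.38 ± 2.84 CPM in Achilles (log2 fold change 1.31 ± 0.33, adjusted p = 0.015). Opposite to these, Matn4, a matrilin that links matrix filaments, averaged 2.76 ± 0.525 CPM in Flexor and 34.9 ± 9.79 CPM in Achilles (log2 fold change -3.66 ± 0.22, adjusted p = 1.2e-05), and Matn3 averaged 0.165 ± 0.0532 CPM in Flexor and 3.05 ± 1.88 CPM in Achilles (log2 fold change -4.204 ± 0.51, adjusted p = 0.00038). Acan, the cartilage proteoglycan aggrecan, averaged 20.8 ± 11.1 CPM in Flexor and 46.5 ± 13.6 CPM in Achilles (log2 fold change -1.16 ± 0.33, adjusted p = 0.026), a call lost without Flexor library 1, 2 or 3 or Achilles library 2. Sox9 averaged 45.4 ± 15.4 CPM in Flexor and 32.3 ± 6.64 CPM in Achilles and did not pass the test (log2 fold change 0.49 ± 0.24, adjusted p = 0.15).

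Bone genes were lower in 8 of 21 tested cases and higher in 0 (1 without Achilles library 2), with a median log2 fold change of -0.63. At an unadjusted p under 0.05 edgeR had 1 higher bone gene, and DESeq2 and voom called 1 each. For Ibsp, Flexor levels were 3.46, 4.37, 1.81 and 8.07 CPM, against 324, 895, 379 and 666 CPM in Achilles. Ibsp, bone sialoprotein, a matrix protein of mineralizing tissue at chromosome 5, 104299171 to 104311469, plus strand, was far lower in all Flexor libraries (log2 fold change -6.996 ± 0.57, adjusted p = 4.4e-05). Levels of Runx2 were 1.02, 0.816, 0.4502 and 1.01 CPM in the Flexor libraries, against 3.701, 4.2998, 2.33 and 3.95 CPM in the Achilles libraries. Runx2, a transcription factor that osteoblasts require, followed with a smaller difference (log2 fold change -2.11 ± 0.29, adjusted p = 0.00074). Bglap2, an osteocalcin gene with near-identical copies among which reads may be split, had 25 reads over the Flexor libraries and 386 reads over the Achilles libraries. Tnfrsf11b, osteoprotegerin, the decoy receptor that restrains osteoclasts, averaged 30.6 ± 6.56 CPM in Flexor and 107 ± 31.03 CPM in Achilles (log2 fold change -1.81 ± 0.22, adjusted p = 0.00038). Acp5, an acid phosphatase of osteoclasts, averaged 6.85 ± 1.49 CPM in Flexor and 53.6 ± 22.3 CPM in Achilles (log2 fold change -2.97 ± 0.33, adjusted p = 0.00023). Of 10 osteoclast genes 2 (20%) were lower and 1 (10%) higher (2 higher without Achilles library 3). Spp1 averaged 1069 ± 364 CPM in Flexor and 1657 ± 574 CPM in Achilles and did not pass the test (log2 fold change -0.63 ± 0.304, adjusted p = 0.15).

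**Figure D3:**
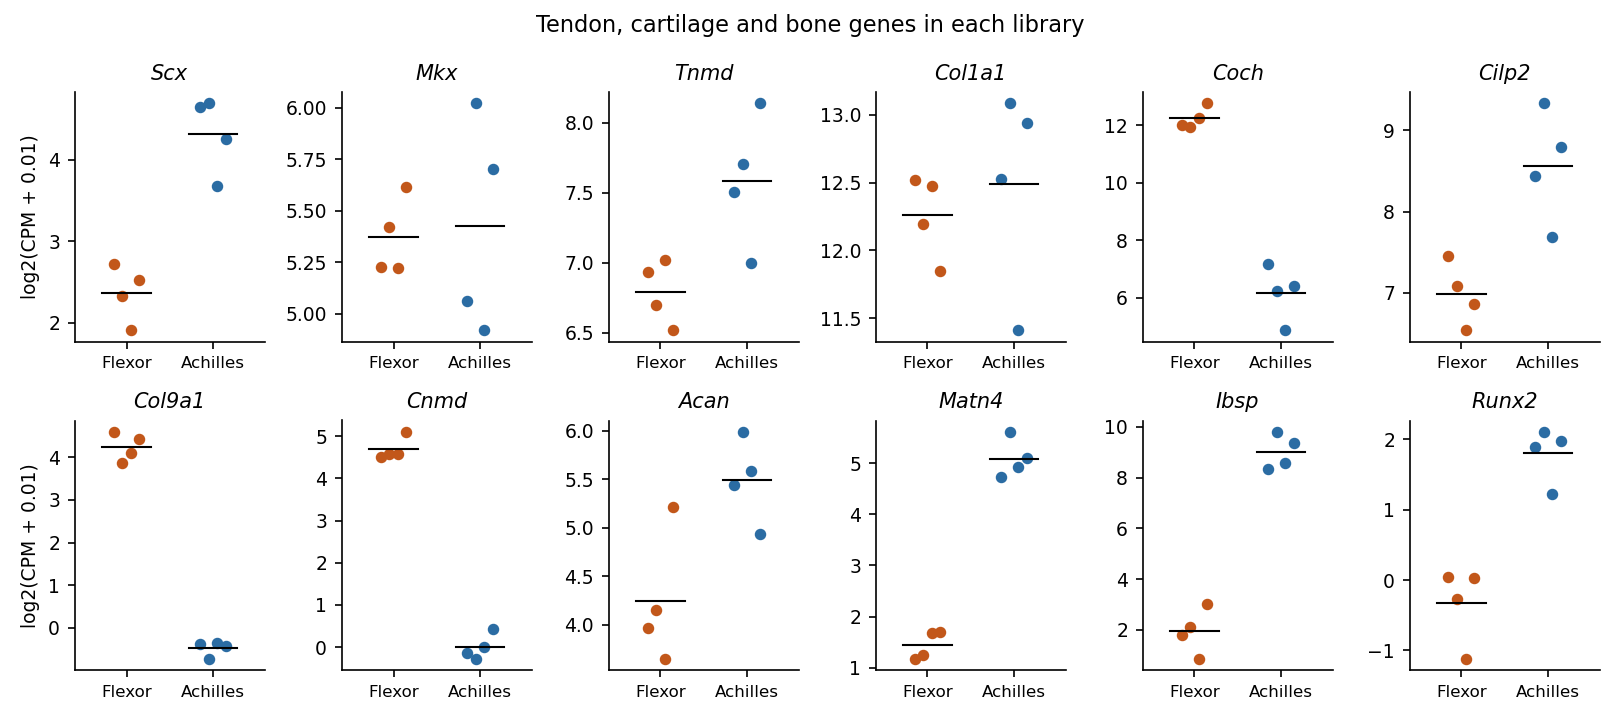
Level of 12 tendon, cartilage and bone genes as log2(CPM + 0.01) in 4 Flexor (orange) and 4 Achilles (blue) libraries, with the mean of each as a line and a separate vertical scale in each panel. Mkx and Col1a1 overlap between the tendons, Coch, Col9a1 and Cnmd lie higher in every Flexor library, and Scx, Matn4, Ibsp and Runx2 lie lower in every Flexor library.

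Secreted Wnt modulators went in both directions, and 11 of 51 Wnt pathway genes (21.6%) were higher and 12 (23.5%) lower. Sfrp2 reached 0.469, 0.301, 0.795 and 0.266 CPM in Flexor, against 22.3, 53.5, 8.17 and 32.3 CPM in Achilles. Sfrp2, a secreted Frizzled-related protein that binds Wnt ligands, was low in all Flexor libraries (log2 fold change -5.98 ± 0.62, adjusted p = 0.00016). Sfrp1 stood at 33.3, 33.7, 42.8 and 41.5 CPM in Flexor libraries 1 to 4, against 9.33, 8.26, 4.704 and 8.23 CPM in Achilles libraries 1 to 4. Sfrp1, from the same family, was higher in each Flexor library than in any Achilles library (log2 fold change 2.31 ± 0.202, adjusted p = 6.7e-05). The R-spondins, which enhance Wnt signalling through Lgr receptors, were divided as well. Rspo1 averaged 4.25 ± 0.207 CPM in Flexor and 0.608 ± 0.149 CPM in Achilles (log2 fold change 2.800 ± 0.205, adjusted p = 2.7e-05), and Rspo3 averaged 1.498 ± 0.227 CPM in Flexor and 6.82 ± 2.92 CPM in Achilles (log2 fold change -2.19 ± 0.28, adjusted p = 0.00049). Among receptors, Fzd9 averaged 8.36 ± 3.298 CPM in Flexor and 36.5 ± 6.03 CPM in Achilles (log2 fold change -2.12 ± 0.27, adjusted p = 0.00046).

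In the BMP, GDF and TGF-beta pathway 12 of 53 genes (22.6%) were higher and 8 (15.1%) lower. Of the ligands, Bmp5 averaged 22.2 ± 2.03 CPM in Flexor and 5.23 ± 0.4697 CPM in Achilles (log2 fold change 2.08 ± 0.12, adjusted p = 7.2e-06) and Bmp4 averaged 40.1 ± 5.396 CPM in Flexor and 19.02 ± 4.65 CPM in Achilles (log2 fold change 1.08 ± 0.18, adjusted p = 0.0021). CPM values of Gdf5 were 0.417, 0.741, 0.4598 and 0.932 in the Flexor libraries, against 8.17, 11.6, 3.26 and 8.39 in the Achilles libraries. Gdf5, a growth factor of joints and tendon attachments, was lower in all Flexor libraries (log2 fold change -3.62 ± 0.41, adjusted p = 0.00027). Fst, follistatin, which binds activins and myostatin, averaged 6.63 ± 0.435 CPM in Flexor and 19.9 ± 2.74 CPM in Achilles (log2 fold change -1.59 ± 0.13, adjusted p = 4.1e-05). For Mstn, Flexor levels were 75.9, 77.7, 59.3 and 33.6 CPM, against 4.65, 2.44, 3.67 and 7.66 CPM in Achilles. Mstn, myostatin, a muscle-made inhibitor of muscle growth, was higher without overlap (log2 fold change 3.74 ± 0.38, adjusted p = 0.00015).

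Of 41 tested FGF, Hedgehog and Notch genes, 13 were lower and 5 higher, with 8 lower without Flexor library 2. Hhip, a decoy that binds Hedgehog ligands, averaged 9.21 ± 3.27 CPM in Flexor and 2.24 ± 1.89 CPM in Achilles (log2 fold change 2.04 ± 0.51, adjusted p = 0.015), and Gli1, a transcription factor and target of the Hedgehog pathway, averaged 7.001 ± 1.005 CPM in Flexor and 2.99 ± 0.686 CPM in Achilles (log2 fold change 1.23 ± 0.19, adjusted p = 0.0015). Smo, the signal transducer of that pathway, averaged 20.4 ± 3.89 CPM in Flexor and 49.3 ± 11.4 CPM in Achilles (log2 fold change -1.28 ± 0.19, adjusted p = 0.001). Notch3, the Notch receptor of pericytes and smooth muscle, averaged 33.2 ± 4.09 CPM in Flexor and 94.1 ± 25.7 CPM in Achilles (log2 fold change -1.501 ± 0.18, adjusted p = 0.00036).

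Growth genes of the IGF axis and imprinted loci were lower in 12 of 27 tested cases and higher in 4 (1 to 2 without Flexor library 2, 3 or 4 or Achilles library 1). Levels of Nnat were 11.7, 16.8, 5.19 and 6.15 CPM in the Flexor libraries, against 502, 490.2, 269 and 748 CPM in the Achilles libraries. Nnat, neuronatin, a small membrane protein from an imprinted locus at chromosome 2, 157560078 to 157562522, plus strand, was low in all Flexor libraries (log2 fold change -5.65 ± 0.48, adjusted p = 5.6e-05). Mest reached 3.73, 3.04, 2.73 and 3.81 CPM in Flexor, against 51.9, 36.4, 15.9 and 50.1 CPM in Achilles. Mest, another imprinted gene, known from growing fat tissue, was lower too (log2 fold change -3.53 ± 0.34, adjusted p = 0.00011). For both genes Achilles library 3, the lowest Achilles library in adipocyte share, was the lowest Achilles library, as it was for Pitx1, Scx and Col1a1. The part of fat tissue in the result was not tested. Igf1 averaged 85.9 ± 33.3 CPM in Flexor and 159 ± 53.6 CPM in Achilles and did not pass the test (log2 fold change -0.89 ± 0.31, adjusted p = 0.057). Igf2 averaged 0.879 ± 0.137 CPM in Flexor and 0.792 ± 0.216 CPM in Achilles and did not pass the test (log2 fold change 0.15 ± 0.24, adjusted p = 0.68). Cdkn1c, an imprinted inhibitor of the cell cycle, averaged 6.87 ± 1.64 CPM in Flexor and 20.1 ± 4.38 CPM in Achilles (log2 fold change -1.55 ± 0.21, adjusted p = 0.00066). The 4 higher genes were Igfbp6, Ndn, Igf1r and Igfbp2. Igfbp6 averaged 999.7 ± 87.1 CPM in Flexor and 538 ± 212 CPM in Achilles (log2 fold change 0.895 ± 0.27, adjusted p = 0.032). Ndn averaged 62.9 ± 16.2 CPM in Flexor and 39.1 ± 8.24 CPM in Achilles (log2 fold change 0.68 ± 0.21, adjusted p = 0.033).

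Of 59 tested guidance genes of axons and vessels, 7 (11.9%) were higher and 13 (22.0%) lower, shares near the 12% and 17.3% of all genes tested. Robo1, a receptor of Slit ligands, averaged 44.7 ± 4.69 CPM in Flexor and 11.7 ± 3.39 CPM in Achilles (log2 fold change 1.94 ± 0.19, adjusted p = 0.00012), and the secreted semaphorin Sema3e averaged 85.7 ± 16.1 CPM in Flexor and 30.1 ± 8.03 CPM in Achilles (log2 fold change 1.51 ± 0.199, adjusted p = 0.00058). Plxnd1, the Sema3e receptor of endothelium, averaged 11.3 ± 1.72 CPM in Flexor and 25.4 ± 4.99 CPM in Achilles (log2 fold change -1.17 ± 0.16, adjusted p = 0.00077).

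Muscle transcripts divided by fibre type. Fast fibre genes were higher in 9 of 18 cases and lower in 0 (1 without Flexor library 1), with a median log2 fold change of 0.91, and slow fibre genes were lower in 13 of 18 and higher in 2, with a median of -2.38. No fast fibre gene was lower at an unadjusted p under 0.05 in edgeR with all 8 libraries or called so by DESeq2 or voom. Fast fibre genes took 6.55% ± 0.9703 in Flexor and 2.79% ± 0.941 in Achilles of counts, and slow fibre genes took 1.39% ± 0.19996 in Flexor and 2.44% ± 0.705 in Achilles, without overlap in either. Genes common to all fibres took 5.02% ± 0.82001 in Flexor and 5.36% ± 1.61 in Achilles, which overlapped, and 5 of 33 were higher and 3 lower. Without Achilles library 3, the library highest in muscle genes, the higher counts were 16 fast fibre genes and 13 genes common to all fibres.

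Myh4 stood at 7576, 13055, 11985 and 6079 CPM in Flexor libraries 1 to 4, against 128, 133, 357 and 923 CPM in Achilles libraries 1 to 4. Myh4, the myosin heavy chain of the fastest (IIb) fibres at chromosome 11, 67238029 to 67260446, plus strand, was therefore higher in all Flexor libraries (log2 fold change 4.65 ± 0.697, adjusted p = 0.0011). CPM values of Myh7 were 25.7, 8.03, 8.81 and 8.39 in the Flexor libraries, against 4647, 2661, 5637 and 2936 in the Achilles libraries. Myh7, the heavy chain of slow (type I) fibres at chromosome 14, 54970684 to 54994626, minus strand, showed the reverse, with Flexor library 1 above the other Flexor libraries (log2 fold change -8.28 ± 0.58, adjusted p = 2.3e-05). For Myh2, Flexor levels were 6314, 1601, 985 and 879 CPM, against 3065, 2498, 4885 and 3318 CPM in Achilles. Myh2, the heavy chain of fast oxidative (IIa) fibres, overlapped and did not pass the test (log2 fold change -0.49 ± 0.59, adjusted p = 0.57), and Flexor library 1 was the highest of the 8.

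Other members followed the fibre types. Pvalb, parvalbumin, a calcium buffer of fast fibres, averaged 1496 ± 514 CPM in Flexor and 158 ± 72.8 CPM in Achilles (log2 fold change 3.24 ± 0.39, adjusted p = 0.00035), and Myl1, a fast light chain, averaged 4949 ± 724 CPM in Flexor and 1149 ± 386 CPM in Achilles (log2 fold change 2.11 ± 0.26, adjusted p = 0.00044). Myl3, a slow light chain, averaged 17.9 ± 5.21 CPM in Flexor and 2161 ± 854 CPM in Achilles (log2 fold change -6.92 ± 0.37, adjusted p = 7e-06), and Tnnc1, the slow troponin C, averaged 45.3 ± 8.75 CPM in Flexor and 1197 ± 488 CPM in Achilles (log2 fold change -4.72 ± 0.31, adjusted p = 1.7e-05). Atp2a2, the calcium pump of slow fibres, averaged 54.5 ± 3.25 CPM in Flexor and 994 ± 252 CPM in Achilles (log2 fold change -4.19 ± 0.21, adjusted p = 5e-06). The exceptions on the slow list were Fhl1, a LIM-domain protein, at 8286 ± 1261 CPM in Flexor and 3686 ± 1019 CPM in Achilles, and Myh6, the atrial heavy chain, at 23.9 ± 9.903 CPM in Flexor and 6.71 ± 3.76 CPM in Achilles.

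Less common myosins and muscle proteins were also higher in Flexor. Myh13, the extraocular heavy chain, averaged 20.04 ± 5.52 CPM in Flexor and 0.729 ± 0.256 CPM in Achilles (log2 fold change 4.78 ± 0.29, adjusted p = 1.2e-05). Levels of Myl10 were 14.5, 14.7, 19.8 and 25.7 CPM in the Flexor libraries, against 0.0111, 0.451, 0.442 and 0.0501 CPM in the Achilles libraries. Myl10, a myosin light chain, was under 0.5 CPM in every Achilles library (log2 fold change 6.29 ± 0.67, adjusted p = 0.0002). Mybph reached 62.3, 106, 214 and 95.7 CPM in Flexor, against 2.62, 1.65, 3.09 and 3.34 CPM in Achilles. Mybph, a myosin binding protein, was higher in each Flexor library (log2 fold change 5.48 ± 0.42, adjusted p = 3.4e-05). Mss51 stood at 366, 334, 102 and 161 CPM in Flexor libraries 1 to 4, against 2.55, 2.43, 5.23 and 4.15 CPM in Achilles libraries 1 to 4. Mss51, a mitochondrial protein of fast muscle, varied more among Flexor libraries yet stayed above all Achilles values (log2 fold change 6.07 ± 0.49, adjusted p = 4.4e-05). Sbk2, a serine/threonine kinase, averaged 545 ± 42.5 CPM in Flexor and 19.9 ± 7.48 CPM in Achilles. Its relative Sbk3 averaged 48.8 ± 12.4 CPM in Flexor and 1.49 ± 0.983 CPM in Achilles.

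Neuromuscular junction genes were higher in 9 of 21 tested cases and lower in 1 (2 lower without Flexor library 4, 3 without Achilles library 2). CPM values of Chrne were 37.9, 21.02, 20.8 and 25.02 in the Flexor libraries, against 0.687, 0.198, 0.658 and 0.2103 in the Achilles libraries. Chrne, the epsilon subunit of the adult acetylcholine receptor, was low in all Achilles libraries (log2 fold change 5.903 ± 0.44, adjusted p = 2.9e-05). For Ache, Flexor levels were 82.3, 57.7, 62.1 and 61.1 CPM, against 5.91, 3.16, 5.55 and 4.29 CPM in Achilles. Ache, acetylcholinesterase, which ends the signal at the synapse, was also higher in every Flexor library (log2 fold change 3.800 ± 0.21, adjusted p = 7.5e-06). Chrnb1, the beta subunit, averaged 57.8 ± 6.38 CPM in Flexor and 15.6 ± 1.14 CPM in Achilles (log2 fold change 1.89 ± 0.11, adjusted p = 7.5e-06). The junction list took 0.171% ± 0.00792 in Flexor and 0.136% ± 0.00836 in Achilles of counts, without overlap.

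Myogenic and satellite cell genes were higher in 8 of 21 cases and lower in 4 (2 without Flexor library 2 or Achilles library 1 or 4). Mymk, myomaker, the membrane protein of myoblast fusion, averaged 3.61 ± 1.46 CPM in Flexor and 0.397 ± 0.2004 CPM in Achilles (log2 fold change 3.18 ± 0.45, adjusted p = 0.00084), while Myh3, the embryonic heavy chain, averaged 18.4 ± 5.37 CPM in Flexor and 78.998 ± 32.8 CPM in Achilles (log2 fold change -2.099 ± 0.31, adjusted p = 0.00096). The list's share of counts overlapped, at 0.1096% ± 0.00541 in Flexor and 0.102% ± 0.0107 in Achilles.

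Of 31 tested adipocyte genes, 26 were lower in Flexor and 0 higher, with a median log2 fold change of -2.80, and the list took 0.526% ± 0.105 in Flexor and 2.42% ± 0.828 in Achilles of counts, without overlap. No adipocyte gene was higher at an unadjusted p under 0.05 in edgeR or called so by DESeq2 or voom. Levels of Plin1 were 6.42, 6.46, 2.46 and 5.15 CPM in the Flexor libraries, against 103, 101, 54.7 and 149.6 CPM in the Achilles libraries. Plin1, perilipin 1, the coat protein of fat droplets, was thus detected in Flexor at a low level (log2 fold change -4.31 ± 0.38, adjusted p = 6.9e-05). Lep reached 11.7, 9.898, 4.52 and 5.32 CPM in Flexor, against 160.0, 142, 72.8 and 312 CPM in Achilles. Lep, leptin, the hormone of adipocytes, varied among Achilles libraries, and each of them exceeded every Flexor value (log2 fold change -4.45 ± 0.49, adjusted p = 0.00022). Fabp4 stood at 226, 241, 168 and 156 CPM in Flexor libraries 1 to 4, against 2404, 2154, 1596 and 3199 CPM in Achilles libraries 1 to 4. Fabp4, a fatty acid carrier of adipocytes and endothelium, behaved likewise (log2 fold change -3.56 ± 0.27, adjusted p = 3.2e-05).

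Genes outside the adipocyte list were also much lower in Flexor. CPM values of Hp were 40.97, 37.1, 26.6 and 27.01 in the Flexor libraries, against 823, 908, 432 and 1189 in the Achilles libraries. Hp, haptoglobin, a plasma protein also made by fat tissue, was lower (log2 fold change -4.67 ± 0.33, adjusted p = 2.3e-05). For Ffar2, Flexor levels were 0.344, 0.73001, 0.182 and 0.533 CPM, against 16.2, 15.8, 9.45 and 18.4 CPM in Achilles. Ffar2, a receptor for short-chain fatty acids, was under 1 CPM in all Flexor libraries (log2 fold change -5.07 ± 0.39, adjusted p = 3.8e-05). Klhdc7a averaged 0.775 ± 0.222 CPM in Flexor and 16.2 ± 4.08 CPM in Achilles (log2 fold change -4.38 ± 0.27, adjusted p = 1.2e-05). In these genes Achilles library 3, the lowest in adipocyte share, was the lowest Achilles library. That library was also the lowest Achilles library for genes of other groups, such as Pitx1, Scx and Col1a1. The part of fat tissue in the result was not tested.

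Transcripts of energy metabolism genes differed in the same libraries. Fatty acid oxidation genes were lower in 23 of 34 tested cases and higher in 2, with a median log2 fold change of -0.93. Cpt2, which carries fatty acids into the mitochondrial matrix, averaged 42.3 ± 2.197 CPM in Flexor and 106 ± 21.3 CPM in Achilles (log2 fold change -1.32 ± 0.14, adjusted p = 0.00021), and Fabp3, the muscle fatty acid carrier, averaged 33.8 ± 8.72 CPM in Flexor and 491 ± 245 CPM in Achilles (log2 fold change -3.86 ± 0.36, adjusted p = 8.8e-05). Lpl, a member of the adipocyte list and the lipase that releases fatty acids from lipoproteins, averaged 229 ± 41.6 CPM in Flexor and 2196 ± 379 CPM in Achilles (log2 fold change -3.26 ± 0.21, adjusted p = 1.5e-05).

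Glycolysis genes were higher in 18 of 35 cases and lower in 2, with a median of 0.62. Phkg1, a catalytic subunit of muscle phosphorylase kinase, averaged 116 ± 12.5 CPM in Flexor and 31.5 ± 12.1 CPM in Achilles (log2 fold change 1.88 ± 0.23, adjusted p = 0.00042), and Slc16a3, the lactate exporter of glycolytic cells, averaged 261 ± 37.1 CPM in Flexor and 48.01 ± 10.4 CPM in Achilles (log2 fold change 2.45 ± 0.18, adjusted p = 2.5e-05). Ldhb, the lactate dehydrogenase chain of oxidative tissue, averaged 92.5 ± 29.8 CPM in Flexor and 599 ± 283 CPM in Achilles (log2 fold change -2.69 ± 0.33, adjusted p = 0.00042). Fast and slow fibre shares and the adipocyte share moved with these lists, and their part in the result was not tested.

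**Figure D4:**
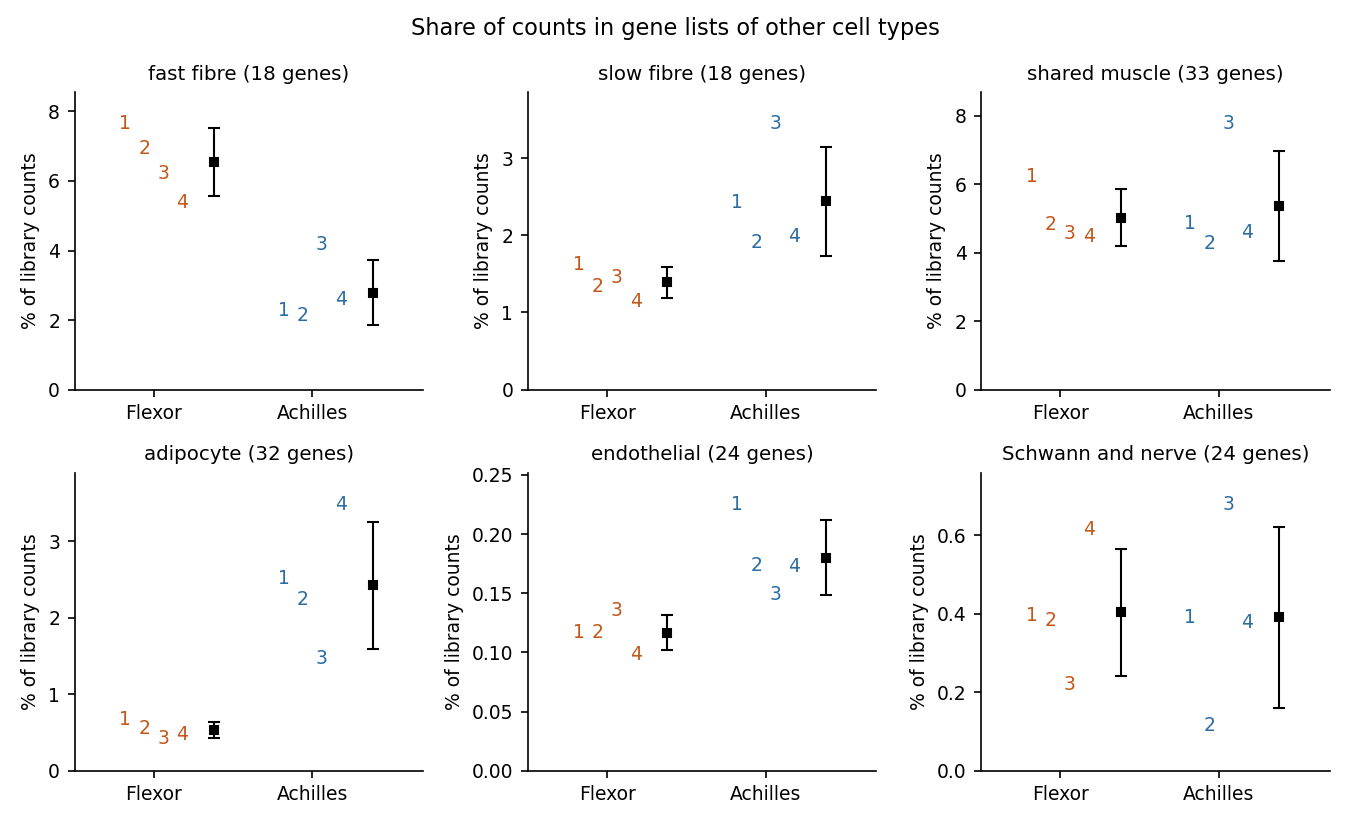
Percent of each library's counts in 6 gene lists of other cell types, with library numbers as symbols (orange Flexor, blue Achilles) and the mean with its SD over 4 libraries as a black square. Fast fibre shares are higher and slow fibre, adipocyte and endothelial shares lower in every Flexor library, while shared muscle and Schwann shares overlap.

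Of 23 tested endothelial genes 15 were lower and 0 higher, with a median of -0.71 and a share of 0.117% ± 0.01501 in Flexor and 0.17998% ± 0.0318 in Achilles of counts, without overlap. The number higher was also 0 at an unadjusted p under 0.05 in edgeR, with DESeq2 and with voom. Plvap, the diaphragm protein of fenestrated capillaries, averaged 16.3 ± 1.81 CPM in Flexor and 79.5 ± 22.1 CPM in Achilles (log2 fold change -2.29 ± 0.199, adjusted p = 6.5e-05), and Sox18, an endothelial transcription factor, averaged 13.9 ± 2.05 CPM in Flexor and 44.1 ± 8.61 CPM in Achilles (log2 fold change -1.66 ± 0.16, adjusted p = 0.00012). Cdh5, the cadherin of endothelial junctions, averaged 28.8 ± 3.14 CPM in Flexor and 63.9 ± 8.86 CPM in Achilles (log2 fold change -1.15 ± 0.12, adjusted p = 0.00019). Pecam1 averaged 209.7 ± 48.7 CPM in Flexor and 218 ± 38.4 CPM in Achilles and did not pass the test (log2 fold change -0.05 ± 0.19, adjusted p = 0.86). Of 7 tested red cell genes 4 were lower and 0 higher (3 to 5 lower with 1 library left out). No red cell gene was higher at an unadjusted p under 0.05 in edgeR or called so by DESeq2 or voom. The 4 lower ones were haemoglobin genes, and since the alpha copies are near-identical their reads may be split. Hbb-bs, a beta globin of red cells, averaged 37.9 ± 17.3 CPM in Flexor and 92.05 ± 10.8 CPM in Achilles (log2 fold change -1.28 ± 0.31, adjusted p = 0.012).

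Skin genes were higher in 6 of 14 tested cases and lower in 0, at a share of 0.0273% ± 0.00172 in Flexor and 0.007401% ± 0.001203 in Achilles of counts, without overlap. In edgeR 1 skin gene was lower at an unadjusted p under 0.05, and DESeq2 and voom called 0. Levels of Dmkn were 60.8, 88.3, 96.5 and 85.99 CPM in the Flexor libraries, against 3.91, 4.33, 4.77 and 2.503 CPM in the Achilles libraries. Dmkn, dermokine, a secreted keratinocyte protein, was higher in each Flexor library (log2 fold change 4.42 ± 0.23, adjusted p = 6.1e-06). Sbsn, suprabasin, averaged 111 ± 24.4 CPM in Flexor and 23.9 ± 6.27 CPM in Achilles (log2 fold change 2.22 ± 0.21, adjusted p = 0.00011). Krtdap averaged 35.2 ± 13.6 CPM in Flexor and 9.996 ± 0.855 CPM in Achilles (log2 fold change 1.81 ± 0.24, adjusted p = 0.00055). Dmkn, Sbsn and Krtdap lie close together on chromosome 7, from 30751471 to 30791097. These genes held most of the skin share of each Flexor library. Krt14, the basal keratin, had 86 reads over the Flexor libraries and 7 reads over the Achilles libraries, and Krt5 was too low to be tested; the part of skin tissue in these levels was not tested. Schwann and nerve genes were higher in 2 of 24 (1 without Flexor library 2, 3 or 4 or Achilles library 1 or 2) and lower in 0 (1 without Achilles library 2), with shares of 0.404% ± 0.162 in Flexor and 0.391% ± 0.22999 in Achilles that overlapped. None was lower at an unadjusted p under 0.05 in edgeR or called so by DESeq2 or voom. Of 21 macrophage and myeloid genes 1 (4.8%) was higher and 2 (9.5%) lower (4 without Achilles library 3). Of 13 lymphoid and mast cell genes 1 (7.7%) was higher and 4 (30.8%) lower. Of 18 pericyte and smooth muscle genes 2 (11.1%) were higher (1 without Achilles library 4) and 4 (22.2%) lower.

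Of 20 tested circadian genes 9 were higher and 1 lower, with a median of 0.41. Rora, a nuclear receptor that drives the clock gene Arntl, averaged 289 ± 23.9 CPM in Flexor and 139 ± 14.03 CPM in Achilles (log2 fold change 1.06 ± 0.12, adjusted p = 0.00025), and Nfil3, a repressor of clock output, averaged 17.6 ± 2.33 CPM in Flexor and 8.91 ± 1.91 CPM in Achilles (log2 fold change 0.98 ± 0.17, adjusted p = 0.0021). Dbp, an output factor that competes with Nfil3, averaged 20.1 ± 4.81 CPM in Flexor and 44.1 ± 11.02 CPM in Achilles (log2 fold change -1.13 ± 0.21, adjusted p = 0.003). Of 35 immediate-early and stress genes 11 were higher and 4 lower. Atf3, a stress-induced factor, averaged 47.1 ± 5.23 CPM in Flexor and 18.4 ± 1.41 CPM in Achilles (log2 fold change 1.36 ± 0.11, adjusted p = 3.9e-05), and Hspa1b, a heat shock protein with a near-identical copy, averaged 39.2 ± 2.59 CPM in Flexor and 17.5 ± 0.982 CPM in Achilles (log2 fold change 1.16 ± 0.09, adjusted p = 3.3e-05). Klf2, a shear-responsive factor of endothelium, averaged 11.9 ± 0.263 CPM in Flexor and 20.3 ± 3.42 CPM in Achilles (log2 fold change -0.77 ± 0.12, adjusted p = 0.0017). The labels give no times of dissection. Of 29 cell cycle genes 2 were higher and 1 lower, and each count fell by 1 when any of several single libraries was left out.

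**Figure D5:**
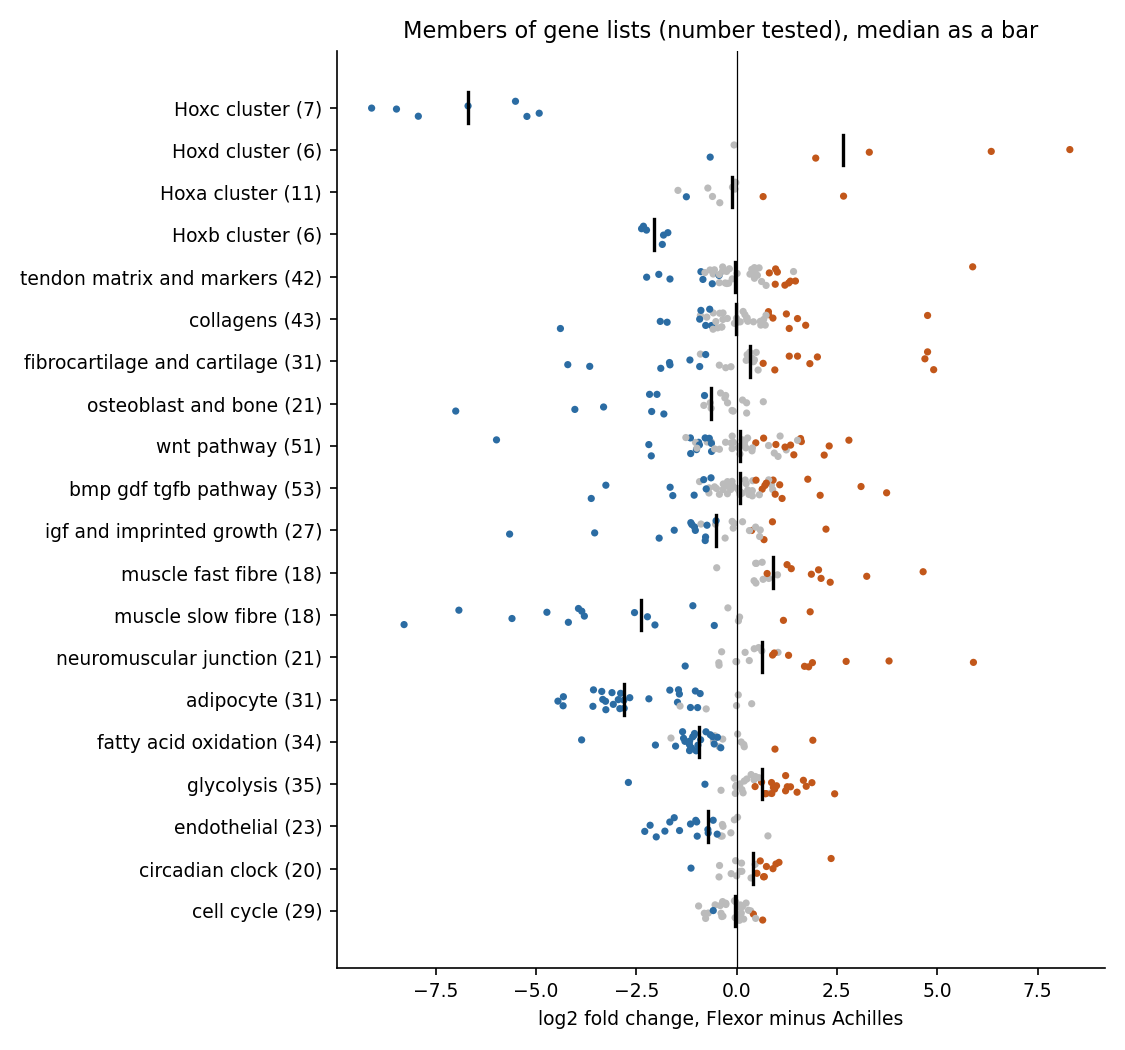
Log2 fold change (Flexor minus Achilles) of each tested member of 20 gene lists, with the number tested beside each name and the median as a black bar. Orange members were higher and blue members lower at an adjusted p under 0.05, and grey members did not pass; the Hoxc, adipocyte and slow fibre medians lie furthest below 0.

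Few genes were close to on or off. At 5 CPM or more in every library of one tendon and under 0.5 CPM in every library of the other, 3 genes were found for Flexor (Myl10, Hoxd13 and Fam240b) and 7 for Achilles (Isl1, Hoxc10, Hoxc9, Tecrl, Pitx1, Brinp3 and Lhx8). Fam240b, a small gene of little known function, had 3310 reads over the Flexor libraries and 12 reads over the Achilles libraries. Lhx8 reached 0.07297, 0.215, 0.287 and 0.238 CPM in Flexor, against 5.93, 14.7, 5.97 and 11.7 CPM in Achilles. Lhx8, a LIM-homeobox factor known from forebrain and tooth, was lower in Flexor (log2 fold change -5.54 ± 0.46, adjusted p = 4.7e-05). Brinp3, a neural protein, averaged 0.1599 ± 0.0927 CPM in Flexor and 9.28 ± 4.09 CPM in Achilles (log2 fold change -5.86 ± 0.47, adjusted p = 4.3e-05), and Tecrl, an endoplasmic reticulum reductase of heart muscle, had 28 reads over the Flexor libraries and 3476 reads over the Achilles libraries.

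The remaining genes of largest change fell in no list above. Odf3l2, a relative of a sperm tail protein, averaged 39.3 ± 26.8 CPM in Flexor and 0.444 ± 0.137 CPM in Achilles (log2 fold change 6.47 ± 0.59, adjusted p = 8.5e-05), with Flexor libraries 1 and 2 above libraries 3 and 4. Cyp3a13, a cytochrome P450, averaged 37.8 ± 5.703 CPM in Flexor and 1.58 ± 0.1997 CPM in Achilles (log2 fold change 4.58 ± 0.16, adjusted p = 6.1e-07). Meltf, melanotransferrin, an iron-binding surface protein, averaged 1.26 ± 0.622 CPM in Flexor and 35.1 ± 10.9 CPM in Achilles (log2 fold change -4.800 ± 0.39, adjusted p = 4.4e-05).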

How the data were processed

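Total RNA of 4 tendons was sequenced, and titles gave the tendon and number of every library. The authors deposited whole-number read counts per gene (41204 genes), with no normalization. The tools were HISAT2, FastQC and edgeR and the build mm10, per the submitters' processing notes. Counting tool, strand option and annotation were not given in the sources used here. A second deposited table holds the authors' own log2 fold changes, log2 CPM means, p-values and FDR. Of 13452 genes, 3312 were called for this pair in the authors' deposited table and 3245 of those also here. The authors' values are headed Achilles-vs-Flexors, and their sign was opposite to Flexor minus Achilles in all 3245. Read as Achilles minus Flexor, they had the same direction as here.

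Counts of the 8 libraries were filtered with filterByExpr, TMM-scaled and fitted in edgeR 4.0.16 (R 4.3.3, robust quasi-likelihood, 2-sided, Benjamini-Hochberg over 22472 genes, threshold 0.05), without a block. Standard errors were taken as log2 fold change size over the root of F. The limb difference by position used all 16 libraries. Named genes were the 10 higher and 10 lower genes of largest change at 10 CPM or more without overlap, 5 and 5 among markers of other cell types, a panel, up to 4 members per list and direction in order of adjusted p, and genes at 5 CPM or more in 1 tendon and under 0.5 CPM in the other; some were left out for length, and a few are not reported here. Members and lists were chosen with earlier results of these data known. No list test was run. P-values measure the spread between 4 libraries a tendon, labelled as separate mice. Positions are from GENCODE (GRCm38), and promoters from RefSeq. No pair of libraries shared all counts, and none agreed within sampling noise.

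The fit was tested on simulated counts for this comparison. With no effect it called 0 of 22038 genes; of 2-fold changes it recovered 44% with 2 false among 90 calls (22045 genes), and of 4-fold changes 87.5% with 14 false among 189 (22007 genes). Alternatives were DESeq2 1.42.0, voom in limma 3.58.1, median-ratio size factors, no filter or a minimum mean CPM of 5, a block for mouse number, muscle and adipocyte covariates, other sets of libraries, a minimum fold change and leaving out each library. Figures were drawn with matplotlib 3.10.9.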

Additional observations from a re-analysis of the deposited data

Results flagged for a closer look

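The forelimb against hindlimb difference was not the same in the distal and proximal tendon pairs for 9 of 14 limb genes, by a test of that difference in all 16 libraries. Of all genes tested for it, 34.3% passed. On the log2 scale, distal minus proximal, the values were 5.96 for Tbx5, 2.84 for Tbx4, -4.09 for Pitx1, -3.78 for Hoxc6, 3.47 for Hoxd10, 3.02 for Hoxd11, -1.70 for Shox2, -3.13 for Meis2 and 2.07 for Emx2. The call of Hoxd11 was lost when any of several single libraries was left out.

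Among 320 groups of 4 libraries, 16 held 1 library apart from the rest by Dixon's criterion, which chance passes in about 1 of 20 groups. Flexor library 1 stood apart at 6314 CPM for Myh2, 25.7 CPM for Myh7 and 0.183% of counts in neuromuscular junction genes. Flexor library 4 was apart for Cnmd (34.4 CPM), Fabp3 (20.8 CPM) and Sox18 (10.9 CPM), and Flexor library 3 for the shares of myogenic genes (0.102%) and of lymphoid and mast cell genes (0.00584%). Achilles library 3, high in muscle genes, was apart for Fabp3 (856 CPM), Fhl1 (5203 CPM) and Ldhb (1022 CPM). Achilles library 4 was apart for Timp4 (313 CPM) and for the share of skin genes (0.00562%). For Hotair (0.0104 CPM in Flexor library 1), Hoxc11 (0.0208 CPM in Flexor library 1) and Hoxd12 (0.0300 CPM in Achilles library 4) the library apart was the only one of its group with a read.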

How the results depend on the processing

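The counts of genes moved by over 1.5 times in 4 settings: with a mean CPM of at least 5 there were 1671 higher and 2371 lower genes, with all 16 libraries in the fit 1543 and 2310, with a minimum absolute log2 fold change of 1 in the observed value 1009 and 2002, and with the adipocyte covariate 4 and 23. Leaving out 1 library gave 1803 to 3171 higher and 2980 to 4293 lower genes. With the mouse number as a replicate block there were 2093 higher and 3381 lower genes and 8 limb genes past the test of position. No label says that equal numbers mark the same animal, so the numbers were not taken as pairs. Deviations from the tendon mean had r from -0.14 to 0.024 between same-numbered libraries and from -0.16 to 0.13 between the others. The libraries did not all correlate best with their own number. Such correlations cannot show whether 2 libraries share an animal. In no setting was a gene called in both fits with opposite directions. Single genes were followed through the settings for 132 of the named genes past the threshold. All 132 kept their call with median-ratio size factors, DESeq2 and voom. The call was kept by 129 with the muscle covariate, 130 with the block, 123 with all 16 libraries and 12 with the adipocyte covariate.

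Some signs turned. With the muscle covariate the log2 fold changes were 0.15 for Col1a1 and 0.23 for Mkx. With the adipocyte covariate, which did not overlap between the tendons, they were 0.02 for Acp5, 0.57 for Cilp2, 1.79 for Col1a1, 1.34 for Col1a2, 0.20 for Dbp, 0.14 for Emx2, -0.034 for Hoxa7, 0.13 for Igf1, 0.74 for Mkx, 0.67 for Myh2, -1.27 for Myh6, 0.16 for Pecam1, 0.34 for Thbs4 and 0.72 for Tnmd. With 1 library left out, Pecam1 ranged from -0.18 to 0.095 (above 0 without Flexor library 4 or Achilles library 1) and Mkx from -0.27 to 0.11 (above 0 without Achilles library 2). The difference by position ranged from -0.85 to 0.93 for Hoxc10 (above 0 without Supraspinatus library 3). The cause of these changes was not tested. Depth limits genes with few reads in 1 tendon, such as Isl1, Hoxc11, Hotair and Hoxd12, whose levels there rest on 8 reads or fewer.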
